A study of Mus musculus with 15 samples.

Results

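The circadian clock genes were followed in pancreatic islets of female non-obese diabetic (NOD) mice, a strain that develops autoimmune diabetes spontaneously. The 10 genes were chosen by name, as the core of the clock and a classical output gene, from the 48709 genes of the count table. They were Arntl, Clock, Npas2, Per1, Per2, Per3, Cry1, Cry2, Nr1d1 and Dbp, and all 10 had enough reads to be tested. Islets came from 15 mice of the NOD genotype, 3 at each of 5 ages (4, 6, 8, 10 or 12 weeks), with no treatment, no transgene and no other strain as a control. Mice lived under an alternating light and dark schedule. The time of day at which each mouse was killed is not given in the sources used here. Each library was made from the polyadenylated RNA of whole islets, so that fewer cells of a type and less RNA per cell cannot be told apart in any value below.

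The clock is a feedback loop of transcription that runs in nearly every cell, islet cells included. ARNTL (also called BMAL1) pairs with CLOCK, or with its relative NPAS2, and the pair binds E-box sequences and activates the Per and Cry genes, Nr1d1 and Dbp. The PER and CRY proteins then inhibit the pair that made them, and NR1D1 (REV-ERB alpha) represses Arntl and Npas2 through ROR elements. As a result Arntl and Npas2 transcripts are known to be high when those of Dbp, Nr1d1 and Per3 are low, so that the genes of opposite phase act together as a clock hand.

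On the mm10 (GRCm38) build the activators lie at chr7:113207465-113314126 (Arntl, plus strand), chr5:76209868-76304792 (Clock, minus) and chr1:39193731-39363236 (Npas2, plus). The Per genes lie at chr11:69095217-69109960 (Per1, plus), chr1:91415982-91459324 (Per2, minus) and chr4:151003652-151044665 (Per3, minus). Cry1 lies at chr10:85131702-85185054 and Cry2 at chr2:92403646-92434043, both on the minus strand. Nr1d1 is at chr11:98767932-98775333 (minus) and Dbp at chr7:45705088-45710203 (plus). Values are per gene, so isoforms were not told apart.

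Several of the genes carry such elements close to their start, and the stretches that hold them are shown because E-boxes and D-boxes are the elements through which the loop is known to act. The RefSeq promoter table of the GRCm38.p6 build covers 250 bases before to 50 bases after a gene start, and 9 of the 10 genes matched it with 13 windows. Searched on both strands, the E-box CACGTG was found in 2 of the 9 genes, the E'-box variant CACGTT in 3, the D-box TTATGTAA in 1 and the ROR element core AGGTCA in 3. Counted by window, they were in 2, 3, 1 and 3 of the 13 windows. The same motifs were in 7.15%, 4.68%, 0.938% and 16.3% of all 32851 windows in the table. A match is a run of letters and not a measured binding site. Below, each stretch is read 5′ to 3′ along the strand of its gene, with the matched letters in capitals, and AACGTG is CACGTT on the other strand. The first 4 are repressor genes, and Nr1d1 closes the list.
Per1 (chr11:69098761-69098810, plus strand, E-box): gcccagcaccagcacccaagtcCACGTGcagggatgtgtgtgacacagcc
Cry1 (chr10:85185087-85185155, minus strand, E'-box then E-box): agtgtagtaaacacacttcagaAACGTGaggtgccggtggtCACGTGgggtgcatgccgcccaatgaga
Cry2 (chr2:92434208-92434257, minus strand, E'-box): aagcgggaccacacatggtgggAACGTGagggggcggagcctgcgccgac
Per3 (chr4:151044794-151044892, minus strand, D-box, 2 copies): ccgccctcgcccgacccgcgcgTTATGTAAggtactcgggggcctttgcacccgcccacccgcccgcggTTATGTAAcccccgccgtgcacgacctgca
Nr1d1 (chr11:98775378-98775427, minus strand, E'-box): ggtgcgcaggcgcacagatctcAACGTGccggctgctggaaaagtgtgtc
Cry1 was the gene with both E-box forms, and Per3 the gene with D-boxes, the element bound by DBP and its relatives TEF and HLF. None of the 5 stretches overlapped an annotated exon.

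Libraries held 25407492 to 41616275 counts assigned to genes, and 16554 genes passed the filter on low counts. Levels are given as CPM, read counts scaled to a common library size with TMM factors, and differences as log2 fold changes of the older over the younger age with their standard error (SE), from edgeR's quasi-likelihood test over all 15 mice. A gene was called where the p adjusted over all genes tested (Benjamini-Hochberg) was under 0.05. The islet label held: the summed level of 8 endocrine genes such as Ins1, Ins2 and Gcg was between 148799 and 339721 CPM in every mouse. That sum lay between 305448 and 339027 CPM at 4 weeks and between 149512 and 189651 CPM at 12 weeks. Over the same ages the 11 leukocyte markers in the table moved from 35.8 to 191 CPM, summed, to between 1654 and 1928 CPM. Mesenchymal markers went from between 296 and 516 to between 1161 and 1853 CPM. All 11 leukocyte and all 6 mesenchymal markers were called higher at 12 than at 4 weeks, so the cell mixture moved alongside that comparison, and its part in it was not tested. Between 6 and 4 and between 12 and 10 weeks 0 of the 11 leukocyte and 0 of the 6 mesenchymal markers had an unadjusted p under 0.05 in edgeR. Between 8 and 6 weeks 10 leukocyte and 5 mesenchymal markers did, and between 10 and 8 weeks 4 leukocyte and 0 mesenchymal markers. By the adjusted test 0 of either kind were called between 8 and 6 weeks. Between 10 and 8 weeks 3 leukocyte and 0 mesenchymal markers were called. Intestinal genes were present in 6-week replicate 2 and 12-week replicate 1, with up to 429 CPM summed.

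One mouse stood apart in clock genes, and results that rest on it are given with and without it. In 6-week replicate 3, 6 of the 10 genes were at their highest of all 15 mice and 2 at their lowest, so that 8 of the 10 had an extreme value there. Over 13298 genes with a mean level above 1 on the log2 CPM scale, 7.11% were highest and 3.8% lowest in that mouse. Its library was of ordinary depth and 3.85% of all genes differed by over 1 log2 unit from the other 6-week mice, inside the range of 0.18% to 7.35% over the 15 mice. The number of clock genes past that size was 4 in this mouse, 2 and 3 in 6-week replicates 1 and 2, and 0 or 1 in mice of other ages. Each mouse was set against the other mice of its age, so 6-week replicates 1 and 2 were measured against a mean that held replicate 3.

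**Figure D1:**
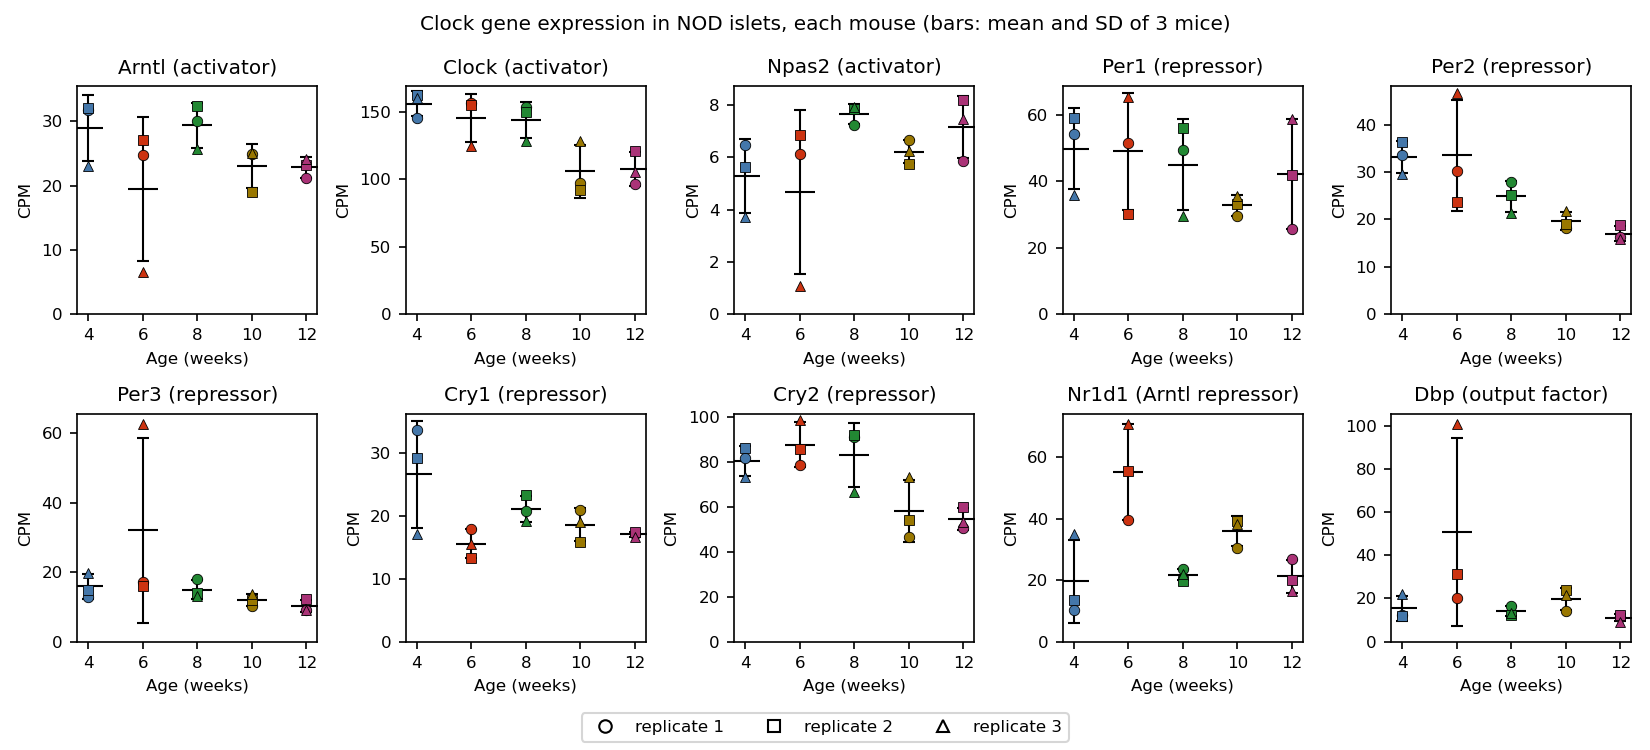
Level of each of the 10 clock genes (y axis, CPM from 0) against age (x axis, weeks). Points are mice, shapes are replicate numbers, and the black marks are the mean and SD of 3 mice. The 6-week replicate 3 (red triangle) is lowest for Arntl and Npas2 and highest for Dbp and Per3.

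Of the 3 activators, Arntl and Npas2 were far lower in one mouse, and Clock was called lower at 12 than at 4 weeks. Arntl, whose protein pairs with CLOCK or NPAS2, was at 31.7, 32.2 and 22.98 CPM at 4 weeks, 24.7, 27.1 and 6.503 at 6, 30.1, 32.4 and 25.6 at 8, 24.9, 19.1 and 25.0 at 10, and 21.1, 23.2 and 24.2 at 12. The value of 6.503 stands alone, since the other 14 mice lay between 19.1 and 32.4 CPM. In log2 units the mouse was 1.98 below the mean of the other 6-week mice, a 3.95-fold difference and the 7th lowest of 13298 genes. None of the age comparisons of Arntl was called, although its 10-week mice were all below its 8-week mice.

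Npas2, which can replace CLOCK, had 6.47, 5.64 and 3.73 CPM at 4 weeks, 6.14, 6.84 and 1.06 at 6, 7.22, 7.84 and 7.93 at 8, 6.66, 5.75 and 6.25 at 10, and 5.87, 8.19 and 7.48 at 12. Again one mouse was low: 6-week replicate 3 was 5.78-fold below its companions, the 2nd lowest gene of all in that mouse. The lowest of the other 14 was 4-week replicate 3 at 3.73 CPM. Clock, the other activator and the most abundant in CPM, moved differently. It was at 146, 162 and 161 CPM at 4 weeks, 157, 155 and 125 at 6, 154, 150 and 129 at 8, 97.5, 91.8 and 129 at 10, and 96.5, 121 and 105 at 12. The 12-week mice were all below the 4-week mice for Clock, and the 10-week mice all below the 8-week mice, and its 6-week replicate 3 was 1.25-fold below its companions.

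Among the repressors, Per2, Cry1 and Cry2 were called lower at 12 than at 4 weeks, and Per3 was far higher in one mouse. Per2, a repressor of the CLOCK and ARNTL pair, was at 33.6, 36.3 and 29.6 CPM at 4 weeks, 30.2, 23.7 and 46.6 at 6, 27.9, 25.1 and 21.4 at 8, 18.2, 19.0 and 21.7 at 10, and 16.3, 18.8 and 15.8 at 12. Every 12-week mouse was below every 4-week and 8-week mouse. Per2 was 33.2 ± 3.37 CPM (SD, n = 3) at 4 weeks and 17.0 ± 1.57 at 12, a difference of -0.97 ± 0.20 (log2, SE; adjusted p = 0.00166, edgeR).

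Per1, whose gene also answers to glucocorticoids and other acute signals, had the widest spread inside ages among the Per and Cry genes once 6-week replicate 3 was left out. It was at 54.3, 59.0 and 35.9 CPM at 4 weeks, 51.4, 30.2 and 65.3 at 6, 49.5, 55.9 and 29.6 at 8, 29.4, 33.2 and 35.5 at 10, and 25.6, 41.9 and 58.8 at 12. The ages overlapped in every comparison of Per1 and none was called. Per3 was at 12.8, 14.96 and 19.8 CPM at 4 weeks, 17.2, 16.1 and 62.7 at 6, 18.0, 13.8 and 13.03 at 8, 10.2, 12.0 and 13.8 at 10, and 9.20, 12.2 and 9.12 at 12. The 62.7 of 6-week replicate 3 is 3.75-fold above its companions, while the other 14 mice stayed between 9.12 and 19.8. Per3 lies inside Camta1, over 41014 bases on the same strand, and reads of the 2 genes may be hard to separate; Camta1 had 549 to 1229 counts a library.

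Cry1 was at 33.5, 29.1 and 17.1 CPM at 4 weeks, 17.9, 13.2 and 15.5 at 6, 20.6, 23.3 and 19.2 at 8, 20.9, 15.8 and 19.0 at 10, and 17.1, 17.4 and 16.6 at 12. A pair of 4-week mice stood above all others, and the rest lay close together. Cry2, its relative, had 81.8, 86.4 and 73.3 CPM at 4 weeks, 78.6, 85.9 and 98.7 at 6, 91.0, 91.8 and 66.8 at 8, 46.8, 54.0 and 73.5 at 10, and 50.5, 59.8 and 53.1 at 12. Its 12-week mice were all below its 4-week mice. Cry2 overlaps D930015M05Rik on the opposite strand, which had 5 to 21 counts a library.

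Nr1d1 and Dbp, both direct targets of the activating pair, differed widely between ages and between mice. Nr1d1 was at 10.3, 13.6 and 35.2 CPM at 4 weeks, 39.7, 55.6 and 70.9 at 6, 23.6, 19.8 and 21.96 at 8, 30.4, 39.4 and 38.3 at 10, and 26.9, 20.2 and 16.6 at 12. In Nr1d1, 6-week mice were above all 4-week and 8-week mice, 10-week mice above all 8-week mice, and 12-week mice below all 10-week mice. Dbp, an activator of output genes through D-boxes, was at 12.1, 12.0 and 22.1 CPM at 4 weeks, 20.3, 31.4 and 101 at 6, 16.7, 12.3 and 13.4 at 8, 13.97, 23.9 and 21.5 at 10, and 11.6, 12.3 and 9.12 at 12. Apart from 6-week replicate 3, Dbp lay between 9.12 and 31.4 CPM, with 6-week mice above all 8-week mice and 12-week mice below all 10-week mice. Nr1d1 overlaps Thra (1075 bases) and Dbp overlaps Sphk2 (737 bases), each on the opposite strand, and whether reads were counted by strand is not given in the sources used here.

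A single mouse also differed within the youngest age. In 4-week replicate 3, Nr1d1 was 2.97-fold above the other 4-week mice, the 3rd highest of 13298 genes in that mouse. Dbp was 1.83-fold above them, the 16th highest, and Cry1 was 1.82-fold below them. The direction of Nr1d1, Dbp, Npas2 and Arntl in this mouse was that of 6-week replicate 3, at a smaller size for all but Nr1d1. Per3 was also higher in both. The other 5 genes had opposite signs in the 2 mice, as log2 differences from their companions: Per1 (-0.65 and 0.73), Per2 (-0.24 and 0.80), Cry2 (-0.20 and 0.26), Cry1 (-0.86 and 0.01) and Clock (0.06 and -0.32). Its leukocyte markers were the lowest of all mice, at 35.8 CPM summed, and its acinar markers, at 1289 CPM, lay between those of the other 4-week mice; their part was not tested.

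The opposite-phase genes were set against each other in each mouse. The log2 difference of Arntl minus Dbp was 1.39, 1.42 and 0.05 at 4 weeks, 0.28, -0.21 and -3.94 at 6, 0.85, 1.39 and 0.93 at 8, 0.83, -0.33 and 0.22 at 10, and 0.86, 0.91 and 1.40 at 12. All 8-week and 12-week mice, the lowest at 0.85, were narrowly above all 6-week and 10-week mice, the highest at 0.83. The 4-week mice lay on both sides, from 0.05 to 1.42. This grouping of ages was seen in the values and was not tested. The same difference taken between Arntl and Nr1d1 was below 0 in all 3 of the 6-week and all 3 of the 10-week mice, ranging from -0.29 to -3.43. At 8 weeks it was above 0 in all 3 mice, from 0.22 to 0.71, and at 4 and 12 weeks the mice fell on both sides of 0. By this difference 12-week replicate 1 (-0.35) lay below 10-week replicate 1 (-0.29), so the grouping did not hold for it. Whether the mice were collected at different times of day was not tested, since no collection time is known.

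**Figure D2:**
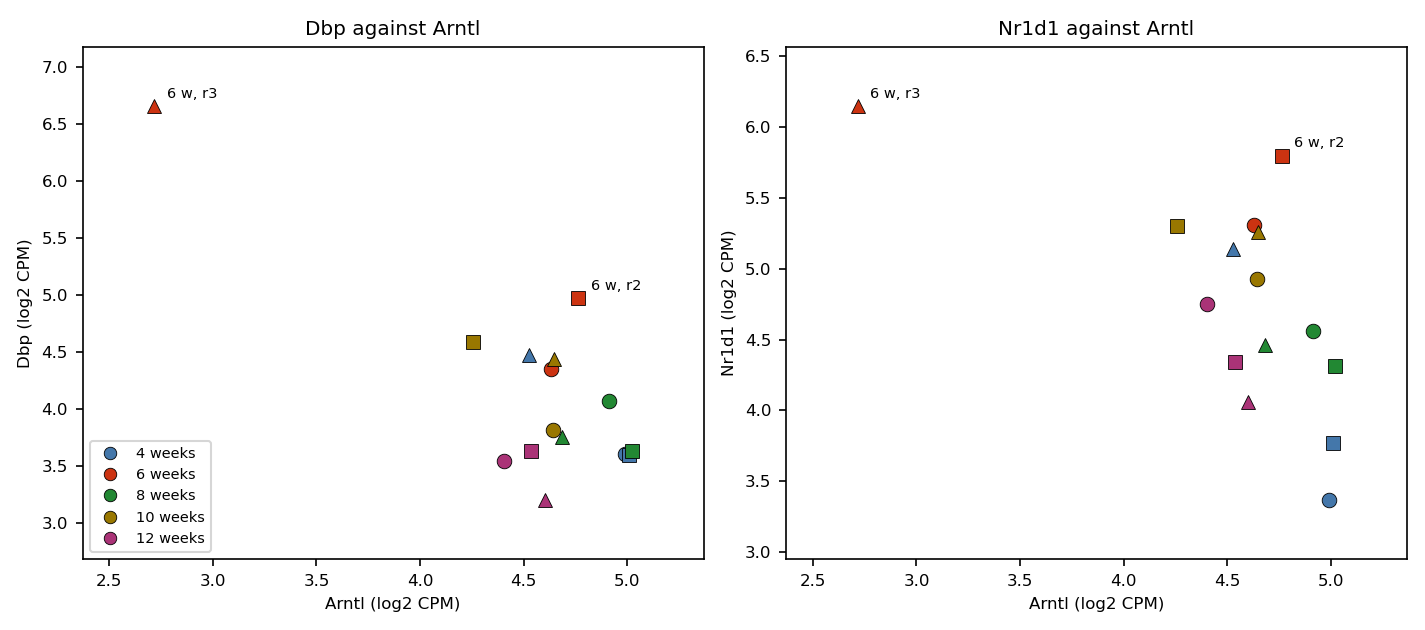
Dbp (left) and Nr1d1 (right) against Arntl, in log2 CPM, in each of 15 mice. Colours are ages and shapes replicate numbers (circle 1, square 2, triangle 3). The 6-week replicate 3 sits alone at the upper left, and its difference of Arntl minus Dbp is -3.94.

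Inside ages, genes were related to Arntl after the mean of each age had been subtracted. Over 15 mice Npas2 had a Pearson r of 0.97 (Spearman rho = 0.80; two-sided permutation within ages, p = 0.00684, adjusted p = 0.0616 over 9 relations). Dbp had r = -0.89 and rho = -0.84 (permutation p = 0.0313, adjusted p = 0.0736). For Nr1d1 r was -0.52 and rho -0.70 (permutation p = 0.0192, adjusted p = 0.0736), and for Per3 r was -0.89 and rho -0.66 (permutation p = 0.0764, adjusted p = 0.138). None of the 9 relations passed 0.05 after adjustment, and 4 of them, Npas2, Dbp, Nr1d1 and Clock, had an unadjusted permutation p under it; with library totals 3 passed, those of Npas2, Nr1d1 and Dbp. Clock had r = 0.57 (rho = 0.61; permutation p = 0.0327) and Cry1, Cry2, Per1 and Per2 had raw p from 0.393 to 0.717.

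The 2 mice whose Arntl deviations from the age mean lay farthest from the median, 6-week replicates 3 and 2, were then left out. Arntl in replicate 2 was at 27.1 CPM, inside the range of the other mice. Its deviation reflects the 6-week mean, which replicate 3 lowered. Without both, r became 0.73 for Npas2, -0.76 for Nr1d1, -0.72 for Dbp and 0.87 for Cry1. The adjusted permutation p of these were 0.0585, 0.0536, 0.103 and 0.0536. For Per3 r was then -0.29, and it was -0.30 without 6-week replicate 3 alone, so that relation rests on that mouse. Without both mice Per2 turned from -0.66 to 0.58 and Per1 from -0.21 to 0.68 (adjusted permutation p = 0.161 and 0.0536).

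The spread inside ages was wide for several clock genes. The within-age SD on the log2 scale was 0.69 for Npas2, 0.62 for Dbp, 0.54 for Arntl, 0.54 for Per3, 0.49 for Nr1d1 and 0.47 for Per1, beside a median of 0.146 over 13298 genes. Those of Clock, Cry2, Per2 and Cry1 ran from 0.18 to 0.27. Without 6-week replicate 3 the SD was 0.49 for Nr1d1, 0.45 for Per1 and 0.37 for Dbp, and it was 0.19 for Arntl and 0.24 for Npas2.

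Between 6 and 4 weeks Nr1d1, Dbp and Per3 were higher at 6 weeks and Cry1 lower, but no clock gene passed the adjusted test. Nr1d1 differed by 1.49 ± 0.37 (log2, SE; adjusted p = 0.166, edgeR) and Dbp by 1.72 ± 0.48 (adjusted p = 0.220, edgeR). Per3 differed by 1.01 ± 0.42 and Cry1 by -0.77 ± 0.20 (adjusted p = 0.503 and 0.183, edgeR). All 4 had an unadjusted p under 0.05 and a fold change of at least 1.5, the study's own threshold, which 2.9% of all genes met. Over all genes 15 were called (0.0906%), and DESeq2 called 3 of the clock genes, Cry1, Nr1d1 and Dbp, beside 246 of 22813 genes. Without 6-week replicate 3, Nr1d1 differed by 1.27, Dbp by 0.75 and Per3 by 0.07, and Cry1 by -0.77. The ages did not overlap for 1 clock gene, Nr1d1, beside 17.6% of all genes. Without 4-week replicate 3, Nr1d1 was called (2.22, adjusted p = 0.0284, edgeR).

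Between 8 and 6 weeks the same genes had values of the other sign. Nr1d1 differed by -1.35 ± 0.37, Dbp by -1.85 ± 0.48 and Per3 by -1.09 ± 0.42 (log2, SE; adjusted p = 0.172, 0.165 and 0.216, edgeR). The 3, all lower at 8 weeks, met the study's threshold, which 9.82% of all genes met. No clock gene and 0 of all genes passed the adjusted test in edgeR (0%), while 5 clock genes and 2983 genes (18%) had an unadjusted p under 0.05; DESeq2 called 2 clock genes, Nr1d1 and Dbp, and 547 of 22813 genes. Without 6-week replicate 3, Nr1d1 differed by -1.13, Dbp by -0.87 and Per3 by -0.16. The 8-week and 6-week mice did not overlap for 4 clock genes, Npas2, Cry1, Nr1d1 and Dbp, beside 19.3% of all genes. These comparisons share the 6-week mice, so their opposite signs are not independent of each other.

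Between 10 and 8 weeks Clock and Cry2 were called lower at 10 weeks, but most of the alternatives run removed both calls. Clock differed by -0.44 ± 0.13 (adjusted p = 0.0422, edgeR) and Cry2 by -0.52 ± 0.16 (adjusted p = 0.0466, edgeR). These 2 of 10 stand beside 16.8% of all genes called and 8.37% called lower. Both calls were lost when any of 8-week replicates 1 and 2 or 10-week replicates 1 and 2 was left out, with adjusted p (edgeR) of 0.101 to 0.180. In each of those fits 0 of all genes were called. The calls of Clock and Cry2 were also lost with library totals (0.0757 and 0.0814 for Clock and Cry2), no filter on low counts (0.0522 and 0.0563), the leukocyte level in the fit (0.348 and 0.268) and the compared ages alone (0.171 and 0.176), all adjusted p from edgeR. All genes called were 2319 of 16554 with library totals and 1872 of 22813 with no filter. With the leukocyte level in the fit, and with the compared ages alone, 0 of all genes were called. The ages did not overlap for 4 clock genes, Arntl, Clock, Npas2 and Nr1d1, beside 32.7% of all genes. Between 12 and 10 weeks no clock gene and 0 of all genes were called in edgeR (0%), with 0 clock genes and 1245 genes (7.52%) at an unadjusted p under 0.05. DESeq2 called 0 clock genes and 12 genes. Nr1d1 and Dbp did not overlap between these ages, beside 9.82% of all genes.

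Across the whole span, 3 repressors and 1 activator were called lower at 12 than at 4 weeks, and none was called higher. They were Per2 (above), Clock (-0.54 ± 0.13, adjusted p = 0.00495, edgeR), Cry2 (-0.56 ± 0.16, adjusted p = 0.0112, edgeR) and Cry1 (-0.64 ± 0.20, adjusted p = 0.0174, edgeR). The count of 4 of 10 stands beside 53.5% of all genes called, 27.2% lower and 26.3% higher. The median of the 10 clock genes was -0.51 and that of all genes -0.05. Per2, Clock, Cry2 and Per3 had no overlap between the ages, as did 64.2% of all genes.

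Npas2 (0.44 ± 0.44), Nr1d1 (0.11 ± 0.37), Per1 (-0.24 ± 0.33), Arntl (-0.34 ± 0.36), Dbp (-0.49 ± 0.48) and Per3 (-0.64 ± 0.42) did not pass. Scaling decides part of this. With library totals the median of all genes moved from -0.05 to 0.20, and 50.6% of all genes were called. Of the clock genes Per2 alone was then called (-0.72, adjusted p = 0.00810, edgeR), with Clock at -0.29, Cry2 at -0.32 and Cry1 at -0.40. Cry1 was also lost without 4-week replicate 1, 4-week replicate 2 or 12-week replicate 3 (adjusted p = 0.0894, 0.0585 and 0.0523, edgeR), and Nr1d1 was called higher without 4-week replicate 3 (0.83, adjusted p = 0.0216, edgeR). In a fit of the compared ages alone Cry1 was lost (adjusted p = 0.0696, edgeR) and Per3 was called lower (-0.59, adjusted p = 0.0401, edgeR). With the leukocyte marker level in the fit, 0 clock genes and 0 of all genes were called in edgeR, and 2 and 1694 had an unadjusted p under 0.05. The differences were then -1.21 for Per2, -1.03 for Cry1, -0.47 for Cry2 and -0.03 for Clock. Age and leukocyte level cannot be told apart here.

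**Figure D3:**
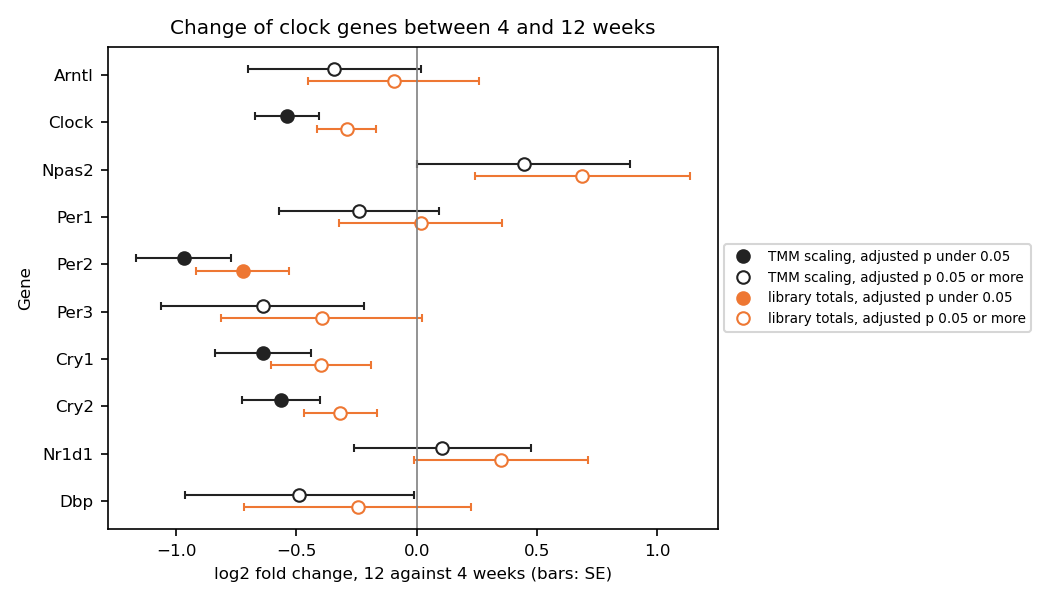
Log2 fold change of the 10 clock genes between 12 and 4 weeks (x axis; bars are SE, n = 3 mice an age) with TMM scaling (black) and library totals (orange). Filled points have an adjusted p under 0.05. With TMM 4 genes are filled, and with library totals Per2 alone is.

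Over all 5 ages in 1 test, 7 of the 10 clock genes changed, beside 56% of all genes. Arntl, Npas2 and Per1 did not pass (adjusted p = 0.507, 0.560 and 0.487, edgeR). The strongest was Per2 (adjusted p = 0.00307, edgeR), followed by Dbp and Clock. Without 6-week replicate 3, Per2 was followed by Clock (adjusted p = 0.00517, edgeR) and Cry2 (0.0150), with Dbp at 0.0299 and Nr1d1 at 0.0473. The count of clock genes called was then 6, beside 51.7% of all genes, with Cry1 at an adjusted p of 0.0598 (edgeR). With library totals it was 4, beside 8662 of 16554 genes, and with the leukocyte level in the fit it was 0, beside 58 genes, with 4 clock genes and 2973 genes at an unadjusted p under 0.05 (edgeR).

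Of 20 accessory clock genes listed, 19 were tested (Rorb was too low), and 10 changed over the 5 ages, a share near the 56% of all genes. Without 6-week replicate 3 the count was 9, beside 51.7% of all genes. Nr1d2 and Tef were then lost (adjusted p = 0.391 and 0.299, edgeR) and another gene of the list was gained. With library totals 5 of the 19 changed, beside 8662 of 16554 genes. Among the most significant were Bhlhe40 and Bhlhe41, E-box repressors of the clock; Nampt, an enzyme of NAD synthesis; Btrc, part of a ubiquitin ligase that removes PER proteins; Ciart, a repressor of the ARNTL pair; Csnk1d, a kinase of PER proteins; and Hlf, a relative of Dbp. Between 4 and 12 weeks 7 of 19 passed, beside 53.5% of all genes, and 3 with library totals, beside 50.6%. Bhlhe40 and Nampt rose (1.82 ± 0.33 and 0.60 ± 0.17), and among those that fell were Hlf, Btrc, Bhlhe41 and Csnk1d, by 1.11, 0.50, 0.46 and 0.20 on the log2 scale.

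Bhlhe40 had the clearest course of these. It was at 16.1, 11.54 and 9.77 CPM at 4 weeks, and at 43.0, 38.2 and 50.7 CPM at 12 weeks. Its mice at these ages did not overlap, and neither did those of Nampt, at 50.2 to 65.4 CPM at 4 weeks and 72.4 to 99.8 at 12. Bhlhe40 and Nampt are also known to be active in immune cells, and leukocyte markers moved in the same direction, as given above; what part they had was not tested.

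The accessory genes showed 6-week replicate 3 once more. Nfil3, a repressor at D-boxes, was at 5.40 CPM there, and at 15.7 to 33.0 in the other 14 mice. Tef, an activator at D-boxes, was at 174 CPM there and at 36.4 to 66.5 in the other mice. Nr1d2, the relative of Nr1d1, was at 188 CPM, and at 35.0 to 88.1 in the others. Hlf was at 20.3 CPM beside 3.36 to 10.4, and Ciart at 4.37 beside 0.21 to 1.27. The 2 lists together thus moved in 2 directions in this mouse, with Arntl, Npas2 and Nfil3 low and Dbp, Tef, Hlf, Nr1d2, Ciart and Per3 high.

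**Figure D4:**
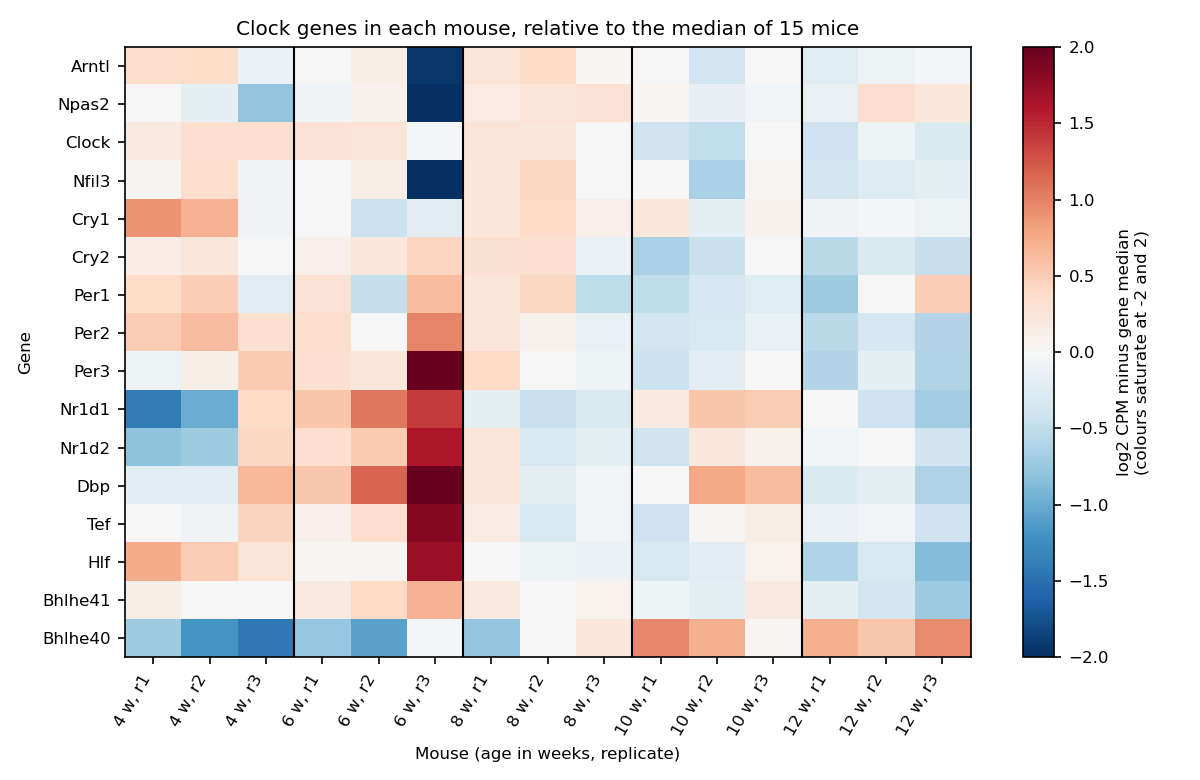
Log2 CPM of 16 clock genes (rows) in each of 15 mice (columns, by age and replicate), minus the median of each gene over the mice. Colours saturate at -2 and 2. In 6-week replicate 3 Arntl, Npas2 and Nfil3 are lowest (blue) and Dbp, Tef, Hlf, Nr1d2 and Per3 highest (red), and Bhlhe40 is above its median in the 12-week mice.

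The genes whose deviations from age means were most like those of Arntl, over 15 mice and 13297 other genes, were Nfil3 (r = 0.98), Npas2 (0.97), Mbp (0.94), Nckap5 (0.92) and Fam84a (0.91). The most opposed were Tef (-0.91), Erich5 (-0.91), Per3 (-0.89), Naa60 (-0.89) and Dbp (-0.89). Of the other 9 clock genes, Npas2 ranked 2nd from the top and Per3 and Dbp 3rd and 5th from the bottom. Clock was 390th from the top, Nr1d1 388th from the bottom, Per2 79th from the bottom, Per1 3682nd from the bottom, Cry1 2768th from the top and Cry2 4952nd from the bottom. These values share 1 extreme mouse. Without it Nfil3 was 4th and Npas2 100th from the top, Dbp 242nd and Nr1d1 80th from the bottom, and Per3 1863rd from the bottom. Per2 turned from -0.66 to 0.42 (1644th from the top), Cry1 was 87th from the top, and all 5 of the most opposed genes were replaced by others.

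For Dbp the most alike were Tef (0.98), Nr1d2 (0.93), Per3 (0.92), Zfp367 (0.89) and Oxr1 (0.89), and the most opposed Hist1h4j (-0.93), Gfod1 (-0.90), Prmt7 (-0.89), Cln8 (-0.89) and Hist1h4h (-0.89). Of the clock genes, Nr1d1 ranked 87th, Per2 321st, Cry2 1918th and Per1 5637th from the top. Arntl ranked 6th, Npas2 7th, Cry1 918th and Clock 2185th from the bottom. Without 6-week replicate 3, Tef (0.94) and Nr1d2 (0.93) were still 1st and 2nd, Nr1d1 was 45th (0.84) and Cry1 was 42nd from the bottom (-0.83). Arntl was then 1059th and Npas2 1078th from the bottom, Per3 was 421st from the top, and Per2 turned from 0.60 to -0.16.

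Signals that also reach clock genes were set beside them. Of all genes, 26.3% were called higher and 27.2% lower at 12 than at 4 weeks. Of 8 glucocorticoid-responsive genes such as Fkbp5, Tsc22d3 and Sgk1, 2 were called higher and 1 lower at 12 than at 4 weeks, with a median of 0.01. In 6-week replicate 3 their summed level was 308 CPM, beside 297 and 328 in the other 6-week mice. Of 8 immediate-early genes such as Fos, Egr1 and Nr4a1, 7 were called higher at 12 weeks, with a median of 1.27, and their sum in 6-week replicate 3 was 207 CPM beside 288 and 341. Leukocyte markers were higher in 6-week replicate 3, at 225 CPM summed, than in the other 6-week mice, at 54.3 and 99.5 CPM. Its acinar markers, at 4664 CPM, lay between those of the others, at 8542 and 2015 CPM. The part of the cell mixture in its clock gene values was not tested.

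Levels between genes were compared per length, in the deposited TPM, which divides counts by transcript length and depth. Medians over 15 mice were 24.3 TPM for Cry2, 21.6 for Clock, 21.0 for Nr1d1, 17.5 for Per1, 16.0 for Arntl, 14.1 for Cry1, 11.1 for Dbp, 8.90 for Per2, 3.12 for Per3 and 2.94 for Npas2. The order of neighbours was firm in some places: Per2 was above Per3 in 15 of 15 mice, Cry2 above Clock in 14 and Dbp above Per2 in 12. It was not for Clock and Nr1d1 (8 of 15), Nr1d1 and Per1 (9), Cry1 and Dbp (9) or Per3 and Npas2 (8). In TPM units, without regard to level, Dbp had the widest range, from 7.45 to 66.4, and Clock ranged from 16.0 to 25.0. Npas2, at a lower level, ranged from 0.438 to 4.21 TPM. In CPM the highest Dbp value was that of 6-week replicate 3, at 101, beside at most 31.4 in the other 14 mice.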

How the data were processed

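Islets of 15 female NOD mice were sequenced from polyadenylated RNA as paired reads. The authors trimmed, aligned and counted the reads in CLC Genomics Workbench with default settings, and the labels name the mm10 build. The counts deposited are reads per gene, in whole numbers and not normalized. The deposited TPM and RPKM values are scaled for length and depth by the authors and were used for levels between genes only. A further 15 per-sample columns of CPM by the authors were not used here.

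Samples were grouped by the age in their labels. After filterByExpr, 16554 of 48709 genes remained. With TMM factors, edgeR 4.0.16 (R 4.3.3) was fitted by glmQLFit to 1 mean for each age, without covariates, and ages were compared by glmQLFTest. Counts at a fold change of at least 1.5 with an unadjusted p under 0.05 follow the study's threshold. Log2 CPM used a prior count of 2. Correlations used 100000 permutations within ages. The code was tested on simulated data, and figures were drawn with matplotlib 3.10.9 in Python 3.11.15.

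Library depth (25407492 to 41616275 counts) limits low genes most, and mice of one age differed by more than sampling of reads gives (chi-square per degree of freedom 16.7 to 135). No pair of samples held identical counts. Regions match GRCm38 for 9 of the 10 genes, and promoter sequences are those of RefSeq on GRCm38.p6. The listed leukocyte marker Itgam was not analysed here.

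All 10 genes are named. Accessory genes are named where the test over 5 ages gave an adjusted p under 0.05, at most 8 by smallest p (1 of them is not reported here), and the 5 genes most and least like Arntl and Dbp are named. Genes at 6-week replicate 3 were described after their values were seen. The members and lists were chosen with earlier results of these data known.

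Alternatives were DESeq2 1.42.0, its size factors, library totals, no filter on low counts, the replicate number as a block, the leukocyte marker level as a covariate, the compared ages alone, a prior count of 0.5 and each mouse left out in turn. The values without 6-week replicate 3 for likeness and spread were added after seeing the data.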

Additional observations from a re-analysis of the deposited data

How the results depend on the processing

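Alternatives left 575 of the log2 fold changes of single clock genes on the same side of zero and of the threshold, and 38 changed sign, 29 lost and 8 gained a call. Nr1d1 and Dbp kept their sign between 4, 6 and 8 weeks under each alternative run. With 3 mice an age, a single mouse decides several calls; the cause of the changes was not tested.

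The number of clock genes called went, between 6 and 4 weeks, from 0 to 3 with DESeq2 and to between 0 and 1 with a mouse left out, and between 8 and 6 weeks from 0 to 2 with DESeq2. Between 10 and 8 weeks it went from 2 to 0 with library totals, no filter, the leukocyte covariate or the compared ages alone. All genes called there were 2319 of 16554, 1872 of 22813, 0 and 0. With a mouse left out the count of clock genes was between 0 and 2, beside 0 to 5612 genes. Between 12 and 4 weeks the clock gene count was 1 with library totals, beside 8376 genes, and 0 with the leukocyte covariate, beside 0. Over the 5 ages it was 4 and 0, beside 8662 and 58 genes. The accessory count with DESeq2 was 1 (6 against 4), 1 (8 against 6) and 4 (10 against 8), beside 246, 547 and 4070 of 22813 genes. With library totals it was 0 (10 against 8), 3 (12 against 4) and 5 (over the 5 ages), and with the covariate 0 in these 3. With the compared ages alone it was 0 (10 against 8). With a mouse left out it ran from 0 to 5 (10 against 8), 4 to 7 (12 against 4) and 6 to 11 (over the 5 ages). The number of genes correlated with Arntl was 3 with library totals (Npas2, Nr1d1 and Dbp), and 0 to 3 with a mouse left out.

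The replicate number does not pair mice, since each is a separate animal, and the deviations of same-numbered mice had correlations of -0.504 to 0.509. With it as a block 0 clock and 0 accessory genes were called between 10 and 8 weeks, beside 0 of all genes. Over the 5 ages 6 clock and 7 accessory genes were called, beside 8217 of 16554 genes, and 3 genes were correlated with Arntl. Per2 between 6 and 4 weeks became -0.000305.

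Signs turned for Per2 between 6 and 4 weeks with the covariate (-0.025), and for Clock between 8 and 6 weeks (DESeq2 size factors 0.0013, library totals 0.091, DESeq2 0.00227, covariate 0.21), where Cry2 was 0.023 with library totals. Arntl between 12 and 10 weeks was 0.0050, 0.017, 0.00326 and 0.034 under the same 4, and between 12 and 4 weeks 0.35 with the covariate, where Per1 was 0.017 with library totals. With a mouse left out, values ran between 6 and 4 weeks from -0.55 to 0.30 for Npas2, -0.29 to 0.23 for Per1 and -0.30 to 0.21 for Per2. Between 8 and 6 weeks they ran from -0.11 to 0.062 for Clock, -0.38 to 0.14 for Per1 and -0.15 to 0.060 for Cry2. Between 12 and 10 weeks they ran from -0.13 to 0.054 for Arntl, -0.071 to 0.19 for Clock and -0.23 to 0.11 for Cry2, and between 12 and 4 weeks from -0.56 to 0.019 for Per1 and -0.21 to 0.83 for Nr1d1. Correlations with Arntl ran from -0.32 to 0.55 for Per1, -0.75 to 0.42 for Per2 and -0.25 to 0.53 for Cry2, and without 6-week replicate 3 those with Dbp were 0.21 for Clock, -0.46 for Per1 and -0.16 for Per2.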
